A study of Mus musculus with 20 samples.

Results

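The quantity described here is the difference between 2 hind-limb muscles of the same mouse, soleus minus gastrocnemius, and how that difference changed after 24 h without weight on the hind limbs. All 20 arrays of the series belong to it, since each of the 10 animals gave 1 array per muscle. The mice were male ICR animals aged 6 months, housed singly; 5 control animals walked freely for 24 h, and 5 animals were held by the tail at a head-down tilt of 45° for 24 h (hind-limb suspension, HLS). The labels name no transgene, drug or surgery in either group, and HLS tissue was taken before the limbs bore weight again. Muscles were matched by the animal number of the labels, with animals 1 to 5 in each condition. The level of a gene was the log2 of its processed spot intensity after division by the 75th percentile of its array, so a level of 0 lies at that percentile. The within-animal difference is then the soleus level minus the gastrocnemius level, and the muscle-dependent response is the mean difference of the 5 HLS animals minus that of the 5 controls. It equals the response to suspension in soleus minus the response in gastrocnemius, so 0 means equal log2 responses, and a change of 1 means a factor of 2 between them.

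The soleus is a small postural muscle of the calf that is rich in slow, oxidative fibres and is active during standing, whereas the gastrocnemius is made mostly of fast fibres and works in bursts. Unloading removes tension from both. In atrophying muscle, FoxO factors and other regulators raise ubiquitin ligases that mark contractile proteins for the proteasome, while genes that respond to stretch of the sarcomere lose their stimulus. The comparison asks which of these responses, if any, differ in size between the muscles.

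Each array held 43379 spots that were not controls, of which 80.75% to 93.08% were well above background, and arrays of 1 group correlated with each other at 0.971 to 0.988. The 75th percentile of the intensity ranged from 385.5 to 736.1. The arrays lay on 6 slides, none of which held both muscles, and the file headers put them in 3 scan days: all gastrocnemius controls were scanned on day 1, while 4 of the 5 gastrocnemius HLS arrays were scanned on day 2. The muscle labels were borne out by Myh7, the slow myosin heavy chain. Its within-animal difference was 1.45 ± 0.31 (SD, n = 5 controls) and 1.34 ± 0.37 (SD, n = 5 HLS animals). Myh4, the fastest myosin heavy chain, separated the muscles less evenly. Its differences were -0.24, -2.73, -3.46, -0.86 and -3.92 in control animals 1 to 5. In HLS animals 1 to 5 they were 0.51, -3.14, -2.55, -0.05 and -4.57. Over lists of fibre-type genes, HLS animal 1 stood apart: the median difference over 23 slow-fibre genes was 0.48 in that animal and 0.96 to 1.76 in the other 9, and over 23 fast-fibre genes it was 0.09 against -1.23 to -0.24. Several results are therefore given with and without it, or animal by animal. The RNA spike-in probes, added in equal amount to each labelling, lay at 3.10 ± 0.10 (SD, n = 5) in gastrocnemius controls and at 1.95 to 2.23 in the other 3 groups. Scaling by them moved the median muscle-dependent response of all genes by -1.12, so every direction below is relative to the bulk of the genes on each array.

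No gene's response to suspension was shown to differ between soleus and gastrocnemius. Of 25298 genes tested with limma on the 10 within-animal differences, 0 (0%) had an adjusted p under 0.05 (Benjamini-Hochberg over all genes). At an unadjusted p under 0.05 there were 1459 genes (5.77%), where 5% of the tests would give 1265. Of these, 881 (3.48% of all genes) had the higher value in soleus, meaning a larger rise or a smaller fall there, and 578 (2.28%) the lower. The higher class was 60.4% of these genes, a split that moved with the processing: it was 72.1% with another background correction (normexp), 54% with median scaling, 51.1% with quantile normalization and 48.9% without HLS animal 5, where the lower class was the larger. The 5 HLS animals did not overlap the 5 controls for 276 genes (1.09%). Without HLS animal 1, 1 gene (0.00395%) passed, the dim, unnamed transcript D630039A03Rik (1.67, adjusted p = 0.0291 by limma). Without the animal as a block, 2 genes (0.00791%) passed, Dnmt3a and Nlrc3. When each of 37382 kept probes was tested on its own, an alternative chosen after seeing the data, 2 passed (both adjusted p = 0.0386 by limma): the brightest probe of Dnmt3a, and a dim probe of Jakmip1 (1.46) with at least 1 group in which no array measured it well above background. The precision sets how this is to be read: the median standard error was 0.208, and the median 95% interval reached 0.452 to either side, before adjustment over genes. For a typical gene a muscle difference under that size was not detectable with these arrays, and larger ones could also fail to pass. The smallest estimate with an adjusted p under 0.2 by limma was 0.845 in absolute size, so the 0 calls do not exclude sizeable differences.

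Both muscles differed between conditions, and largely through genes moving the same way. Suspension cannot be told apart from slide or scan day for most of these arrays. In gastrocnemius, slide 3 held 4 HLS arrays and 0 controls. In soleus, slide 4 held 4 controls and 0 HLS arrays, and slide 6, scanned on day 3, held 2 HLS arrays and 0 controls. In soleus, 1503 genes passed (5.94%), 610 higher and 893 lower after suspension, and in gastrocnemius 801 genes passed (3.17%), 295 higher and 506 lower (limma over 20 arrays, adjusted p under 0.05). The number of genes with a suspension response in gastrocnemius was 500, 469 and 499 without Control animal 2, Control animal 3 and HLS animal 3. The muscles shared 517 of these genes, which is 34.4% of the soleus calls and 64.54% of the gastrocnemius calls, and all 517 moved in the same direction. In bulk muscle, a change in the number of cells of a type and a change in RNA per cell cannot be told apart. A further 986 genes passed in soleus alone, but 909 of them had the same sign in gastrocnemius, and 518 had an unadjusted p under 0.05 there. Another 284 passed in gastrocnemius alone, with the same sign in soleus for 234. Passing in 1 muscle alone did not show that the muscles differed, since none of these genes passed for the difference itself after adjustment. An unadjusted p under 0.05 for the difference (limma) was met by 286 of the 986 and 114 of the 284, beside 5.77% of all genes. Choosing genes that passed in only 1 muscle favours such values, so these counts add no support.

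**Figure D1:**
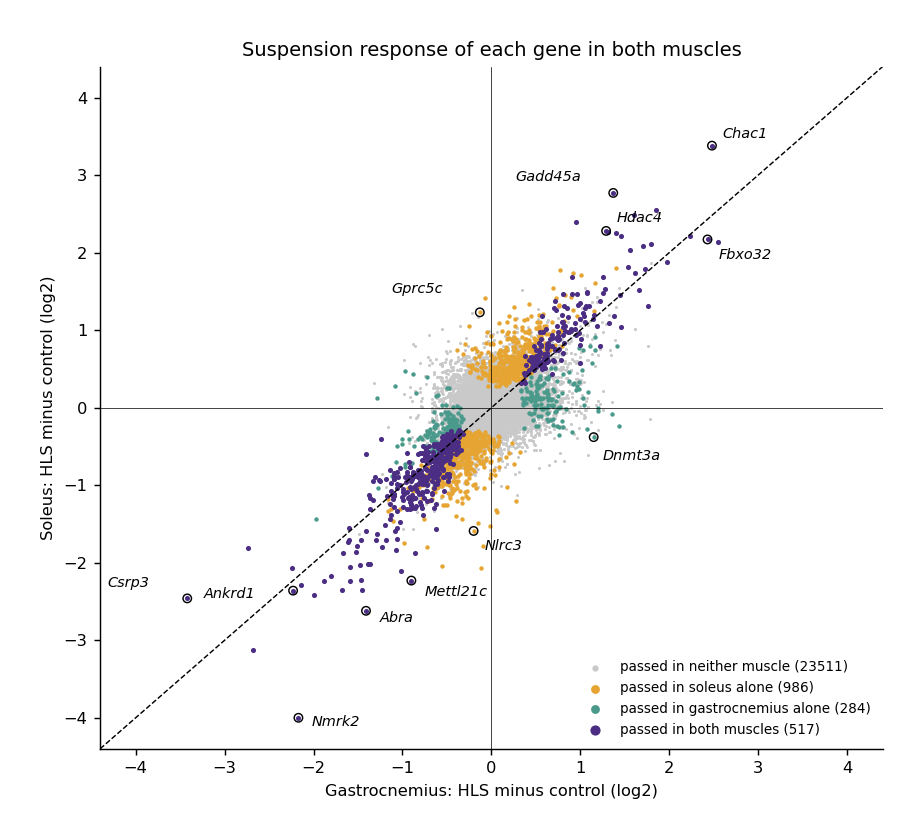
Response to suspension of each of 25298 genes in gastrocnemius (horizontal, HLS minus control, log2) and in soleus (vertical, log2), coloured by the muscle in which it passed, with the dashed line at equal responses. The 517 genes that passed in both muscles lie along the line, with both responses above 0 or both below 0; the circled genes are described in the text.

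The sizes of the responses that passed as an average of both muscles leaned slightly towards soleus. Averaged over both muscles of each animal, 1968 genes passed (7.78%), 770 higher and 1198 lower in HLS animals. The estimate was farther from 0 in soleus for 1351 of them (68.65%), against 55.02% over all genes, with a median lean of 0.11 beside a median average response of 0.497. The share was 68.7% among the higher genes and 68.61% among the lower ones. A gene can pass this average through 1 muscle alone. Of the 517 genes that passed in both muscles, 358 were farther from 0 in soleus. The soleus arrays also varied more between animals, with a median SD within groups of 0.262 against 0.201 in gastrocnemius. Among the 449 chosen genes whose SD was not larger in soleus, the share was 63.03%, against 49.84% over all such genes. Without HLS animal 1 the share was 64.89%. With slide as a fixed block it was 49.75% against 51.25% over all genes. That fit compares conditions only on slide 5 for soleus (1 control and 3 HLS arrays) and on slide 2 for gastrocnemius (3 control arrays and 1 HLS array, from HLS animal 1), so every value given with slide as a fixed block rests on 1 array in an arm of each muscle.

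The genes with the strongest evidence of a muscle-dependent response were then read animal by animal. They are the 10 with the lowest p in each direction, and this choice was made after their values were seen. In all 20, the HLS animals lay apart from the controls, beside 276 (1.09%) of all genes. Choosing by lowest p favours such separation, so it adds no support.

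The lowest p belonged to Dnmt3a, which encodes a DNA methyltransferase that sets new methylation marks. Its soleus level exceeded its gastrocnemius level in the controls by 1.80, 1.64, 1.74, 1.34 and 1.76 in animals 1 to 5. After suspension the differences were 0.13, 0.70, 0.04, -0.11 and -0.12. The muscle gap seen in every control was thus small or absent in the HLS animals: the muscle-dependent response was -1.53 ± 0.18 (SE; 95% interval -1.92 to -1.13), with an adjusted p of 0.0503 by limma. The gastrocnemius supplied most of this, since the level there went from 0.14 ± 0.07 to 1.29 ± 0.24 (SD, n = 5), a rise that passed (1.15, adjusted p = 3.09e-05 by limma), whereas soleus went from 1.80 ± 0.13 to 1.42 ± 0.26 and did not pass (adjusted p = 0.0885). This result rests on 1 of 3 probes. The other probes of Dnmt3a gave 0.08 (95% interval -0.31 to 0.46) and -0.18 (95% interval -0.56 to 0.20), and the mean of the 3 gave -0.55 (adjusted p = 0.655 by limma). The labels and files do not say which transcripts each probe detects.

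Pdlim5 and Gbf1 likewise passed in gastrocnemius, where they rose by 1.08 and 0.76, and not in soleus (-0.28 and -0.25), and their probes also disagreed. Pdlim5 encodes a PDZ and LIM domain protein of the Z-disc. Its muscle differences were 0.86 to 1.17 in controls and -1.03 to 0.21 in HLS animals, a muscle-dependent response of -1.36 (95% interval -1.82 to -0.89; adjusted p = 0.127 by limma). A second probe gave -1.48, and the 3 dimmer probes gave 0.06, 0.07 and -0.32, so the probes of this gene fall into separate groups. Gbf1, an exchange factor for Arf GTPases at the Golgi, had -1.01 at its brightest probe and 0.12 and 0.10 at the other 2.

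Nlrc3, which encodes a NOD-like receptor known as a brake on innate immune signalling, differed from Dnmt3a in that its probes were alike and the soleus supplied the change. Soleus exceeded gastrocnemius by 1.46, 1.36, 1.35, 1.90 and 1.07 in the controls and by -0.39, 0.41, -0.06, 0.16 and 0.10 after suspension. The muscle-dependent response was -1.38 (95% interval -1.80 to -0.97; adjusted p = 0.067 by limma), and the second probe gave -1.17 (95% interval -1.58 to -0.75). Nlrc3 fell in soleus by 1.59 (adjusted p = 2.86e-06 by limma), while the gastrocnemius response was -0.20 (adjusted p = 0.629).

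Mettl21c encodes a lysine methyltransferase of muscle, and its differences were 0.06 to 0.94 in controls and -1.05 to -0.58 in HLS animals. It fell in both muscles, by 2.23 in soleus and by 0.90 in gastrocnemius (adjusted p = 2.49e-07 and 0.00648 by limma), with a muscle-dependent response of -1.33 (95% interval -1.74 to -0.93; adjusted p = 0.067). The gene therefore went from higher in soleus in all 5 controls to higher in gastrocnemius in all 5 HLS animals.

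Ccn1, Rrad and Asb5 fell in soleus and did not pass in gastrocnemius. Ccn1, a secreted matricellular protein and a well-known target of the stretch-sensitive coactivator YAP, had differences of 0.86 to 1.30 in controls and -1.20 to 0.28 in HLS animals. Its responses were -1.35 in soleus (adjusted p = 0.00113 by limma) and 0.06 in gastrocnemius (adjusted p = 0.952), a muscle-dependent response of -1.42 (95% interval -1.94 to -0.89; adjusted p = 0.127). Rrad, a small GTPase that restrains L-type calcium channels, had -2.04 in soleus (adjusted p = 2.41e-06 by limma) and -0.55 in gastrocnemius (adjusted p = 0.147). Its muscle differences of 0.67 to 1.89 in controls became -0.56 to 0.35, a muscle-dependent response of -1.49 (95% interval -2.03 to -0.95). Asb5, a muscle member of the ankyrin-repeat SOCS-box family of ubiquitin ligase adaptors, had differences of -0.35 to 0.29 in controls and -2.00 to -0.72 in HLS animals, a muscle-dependent response of -1.36 (95% interval -1.85 to -0.88). Asb5 in soleus of HLS animal 1, at 3.50, lay within the control range (3.04 to 3.71), whereas the other 4 HLS animals lay between 1.36 and 2.16. The unnamed transcripts AK044363 and AK048147 completed the class, at -1.11 and -1.22; both passed in gastrocnemius (0.76 and 0.91) and not in soleus. Both are dim, AK048147 was well above background on 2 of 5 gastrocnemius control arrays, and with normexp their muscle-dependent responses were -0.50 and -0.43.

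**Figure D2:**
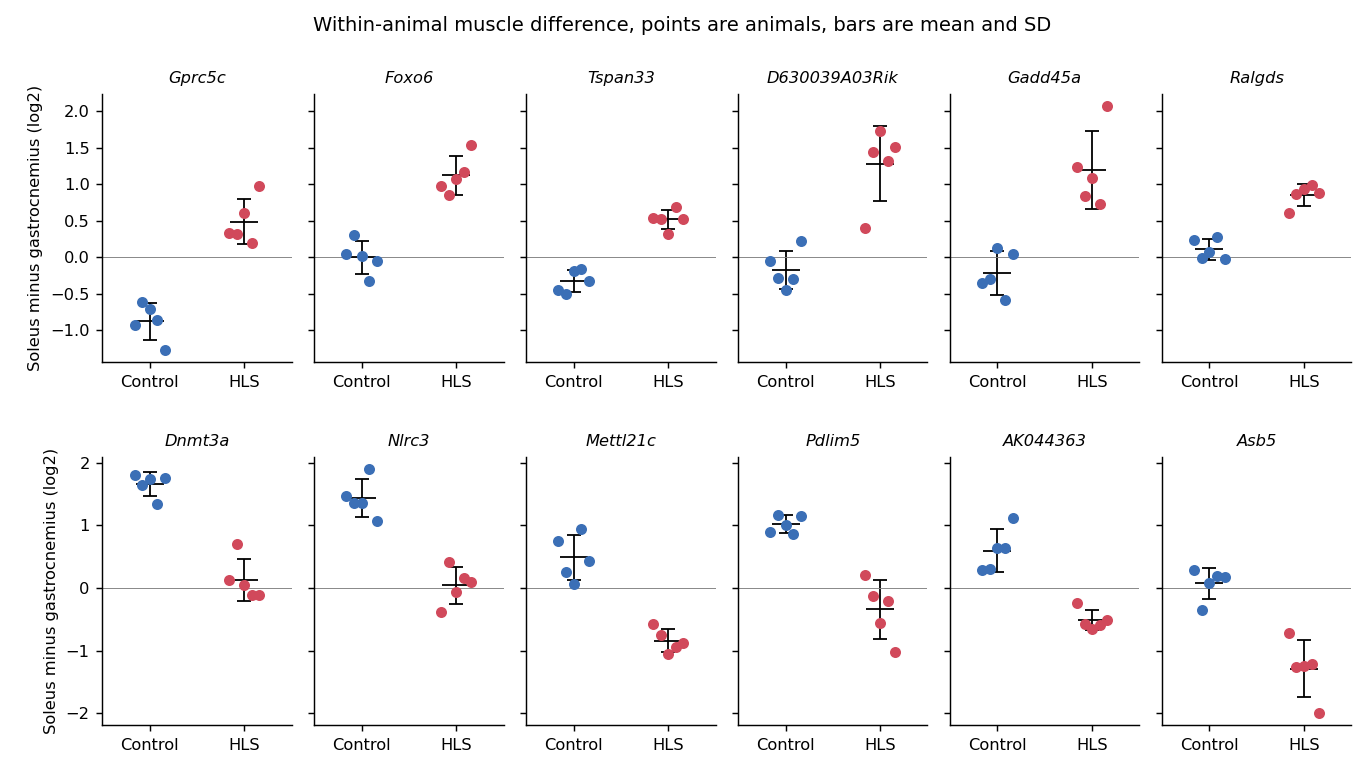
Soleus minus gastrocnemius (log2) in each of 5 control and 5 HLS animals, for the 6 genes with the lowest p in each direction; points are animals in numerical order from left to right, and bars give the mean and SD. In all 12 panels the points of the groups do not overlap, which choosing genes by p favours, and none of these genes passed after adjustment over 25298 genes.

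In the other direction, Gprc5c, an orphan G protein-coupled receptor, was lower in soleus than in gastrocnemius in all 5 controls, by differences of -1.27 to -0.61, and higher in all 5 HLS animals, by 0.20 to 0.97. It rose in soleus (1.23, adjusted p = 0.000107 by limma), while gastrocnemius gave -0.13 (adjusted p = 0.811), and the muscle-dependent response was 1.36 (95% interval 0.95 to 1.77; adjusted p = 0.067). Its other probe leaned the same way with an interval that includes 0, at 0.45 (-0.08 to 0.98).

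Gadd45a, a growth-arrest and stress gene that is induced in many forms of atrophy, rose in both muscles. Its soleus level went from 0.83, 1.10, 1.47, 1.02 and 1.73 in the controls to 4.08, 3.86, 4.00, 2.99 and 5.09 after suspension. The gastrocnemius level went from 1.18, 1.40, 1.35, 1.61 and 1.68 to 2.84, 3.02, 2.92, 2.26 and 3.02. All HLS values exceeded all control values in each muscle, and the rise was 6.82-fold in soleus and 2.58-fold in gastrocnemius (adjusted p = 2.45e-06 and 0.00548 by limma). The muscle-dependent response was 1.41 ± 0.25 (SE; 95% interval 0.86 to 1.95), with an adjusted p of 0.172; HLS animal 5 had the largest difference, at 2.07.

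Hdac4, a class IIa histone deacetylase that represses MEF2 targets and is known from denervated muscle, behaved alike. Its soleus level rose from 1.03 ± 0.29 to 3.31 ± 0.32 and its gastrocnemius level from 0.95 ± 0.13 to 2.24 ± 0.26 (SD, n = 5). These were 4.85-fold and 2.44-fold rises (adjusted p = 6.93e-08 and 9.87e-05 by limma). The controls had muscle differences of -0.22 to 0.61 and the HLS animals 0.83 to 1.45, a muscle-dependent response of 0.99 (95% interval 0.57 to 1.41; adjusted p = 0.262). With slide as a fixed block that value was 0.33.

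The remaining genes of the higher class reached it by different routes. Foxo6, a forkhead factor, fell in gastrocnemius (-0.72, adjusted p = 0.0312 by limma) and gave 0.40 in soleus (adjusted p = 0.234). Tspan33, a tetraspanin, fell in both muscles, by 0.40 in soleus and by 1.24 in gastrocnemius. Ralgds, an exchange factor for Ral GTPases, Nr6a1, an orphan nuclear receptor, and Pex11a, which acts in peroxisome division, rose in soleus by 0.85, 0.55 and 0.98, with gastrocnemius values of 0.10, -0.26 and -0.05. D630039A03Rik rose in both muscles, by 2.40 and by 0.95, and the unnamed transcript AK037078, with a muscle-dependent response of 0.84, passed in neither. D630039A03Rik, Nr6a1 and AK037078 are dim, with mean levels of -1.79, -2.20 and -2.45. The first was well above background on 4 of 5 gastrocnemius control arrays.

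**Figure D3:**
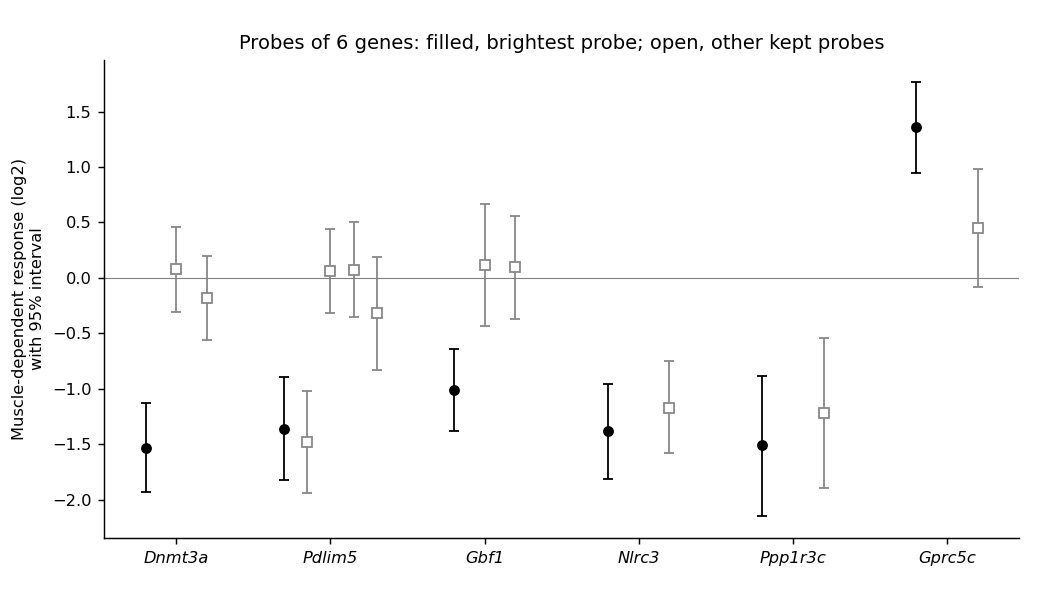
Muscle-dependent response (log2) at each kept probe of 6 genes, with 95% intervals; filled circles are the brightest probe, which stands for the gene, and open squares are its other kept probes. The probes of Nlrc3 and Ppp1r3c lie together below 0, whereas those of Dnmt3a, Pdlim5 and Gbf1 are split between about -1 or lower and values near 0.

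The probe check covered 66 genes, of which 27 had another kept probe. Of the 41 other probes, 29 had the sign of the brightest. Ppp1r3c, which targets protein phosphatase to glycogen, was among those that held: its brightest probe gave -1.51 (95% interval -2.15 to -0.88; adjusted p = 0.262 by limma) and its second -1.22 (-1.89 to -0.54). It fell in soleus by 1.53 (adjusted p = 0.00366 by limma), and gastrocnemius gave -0.02.

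The genes best known from muscle wasting had the same sign of response in both muscles, and none of their muscle-dependent responses passed. Fbxo32 (atrogin-1), the muscle ubiquitin ligase of the F-box family, had soleus levels of 2.59 to 3.45 in controls and 4.82 to 5.43 in HLS animals, and gastrocnemius levels of 1.06 to 2.22 and 3.99 to 4.68. The groups did not overlap in either muscle; the rise was 4.50-fold in soleus and 5.41-fold in gastrocnemius (adjusted p = 2.89e-06 and 2.81e-06 by limma). The muscle-dependent response was -0.26, with a 95% interval of -0.72 to 0.19. Trim63 (MuRF1), the RING-type ligase of the sarcomere, rose in soleus (1.18, adjusted p = 0.0341 by limma) and gave 0.96 in gastrocnemius (adjusted p = 0.124); the difference of 0.21 had an interval of -0.65 to 1.07, so a call in 1 muscle and not in the other did not separate them.

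Cdkn1a (p21), an inhibitor of cyclin-dependent kinases, rose by 1.31 in soleus and by 1.76 in gastrocnemius, and Ddit4 (REDD1), a brake on mTORC1, by 2.14 and by 2.55 (all adjusted p at most 0.025 by limma). Their muscle-dependent responses were -0.45 (95% interval -0.86 to -0.05; adjusted p = 0.805) and -0.40 (-1.52 to 0.72). Ddit4 varied widely between control animals, whose muscle differences ran from -1.43 to 1.91, and its estimate has little precision. With slide as a fixed block the muscle-dependent responses of these 4 genes were -0.98 for Fbxo32, -0.78 for Trim63, -1.50 for Cdkn1a and -1.70 for Ddit4, each lower than without the block, and that of Trim63 had the opposite sign. Foxo1, the FoxO factor upstream of several ligases, did not pass in either muscle (0.47 and 0.51).

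Chac1, an enzyme that degrades glutathione and a target of the stress factor ATF4, had the largest soleus rise among the followed genes. It rose 10.4-fold in soleus and 5.57-fold in gastrocnemius (adjusted p = 0.00016 and 0.00572 by limma), and its muscle difference was -0.89 to 0.55 in controls and 0.19 to 1.11 in HLS animals. The muscle-dependent response of 0.91 (95% interval 0.29 to 1.53) had an adjusted p of 0.689, and with slide as a fixed block it was 0.07.

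The followed genes that respond to mechanical load fell in both muscles, and their estimates did not lean one way. Ankrd1, a titin-binding ankyrin-repeat protein, fell by 2.36 in soleus and by 2.23 in gastrocnemius, and Tnfrsf12a, the receptor of the cytokine TWEAK, by 3.13 and by 2.68 (all adjusted p at most 7.98e-05 by limma). Their muscle-dependent responses were -0.13 (95% interval -0.80 to 0.55) and -0.45 (-1.23 to 0.33). Abra (STARS), an actin-binding protein of striated muscle, had muscle differences of 0.87, -0.11, 0.55, 0.30 and 0.69 in the controls and -0.84, 0.08, -0.71, -0.60 and -1.64 in HLS animals. HLS animal 2 alone lay within the control range. Abra fell by 2.62 in soleus and by 1.41 in gastrocnemius (adjusted p = 7.12e-08 and 0.000219 by limma), a muscle-dependent response of -1.20 (95% interval -1.83 to -0.58; adjusted p = 0.455).

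Csrp3 (muscle LIM protein) and Ankrd2, sensors at the Z-disc and I-band that are typical of slow fibres, leaned the other way. Csrp3 fell by 2.46 in soleus and by 3.42 in gastrocnemius, and Ankrd2 by 1.81 and by 2.74 (all adjusted p at most 0.000253 by limma). The Csrp3 differences were 0.62, -0.01, 0.54, 1.25 and 0.29 in controls and -0.10, 2.97, 1.39, 2.05 and 1.17 in HLS animals. HLS animal 1 was the lowest of all 10, and it moved both genes: the Csrp3 muscle-dependent response was 0.96 (95% interval -0.04 to 1.96) with it and 1.36 without it, and that of Ankrd2 was 0.93 (0.14 to 1.73) with it and 1.25 without it. With scan day as a term, a fit in which the HLS effect rests on that animal, they were -0.64 and -0.32.

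Nmrk2, a muscle kinase that makes NAD from nicotinamide riboside, had the largest fall of the followed genes in soleus. Its soleus level was 3.76 to 4.32 in controls and 1.99, -0.53, 0.46, -0.37 and -1.39 in HLS animals 1 to 5, while its gastrocnemius level was 4.28 to 5.75 and then 1.86 to 3.57. The spread among HLS animals was wide, with muscle differences of -4.95 to -1.30. Nmrk2 fell by 4.00 in soleus and by 2.17 in gastrocnemius (adjusted p = 1.89e-05 and 0.011 by limma); the muscle-dependent response was -1.83 (95% interval -3.24 to -0.43; adjusted p = 0.74) and was -2.21 without HLS animal 1.

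**Figure D4:**
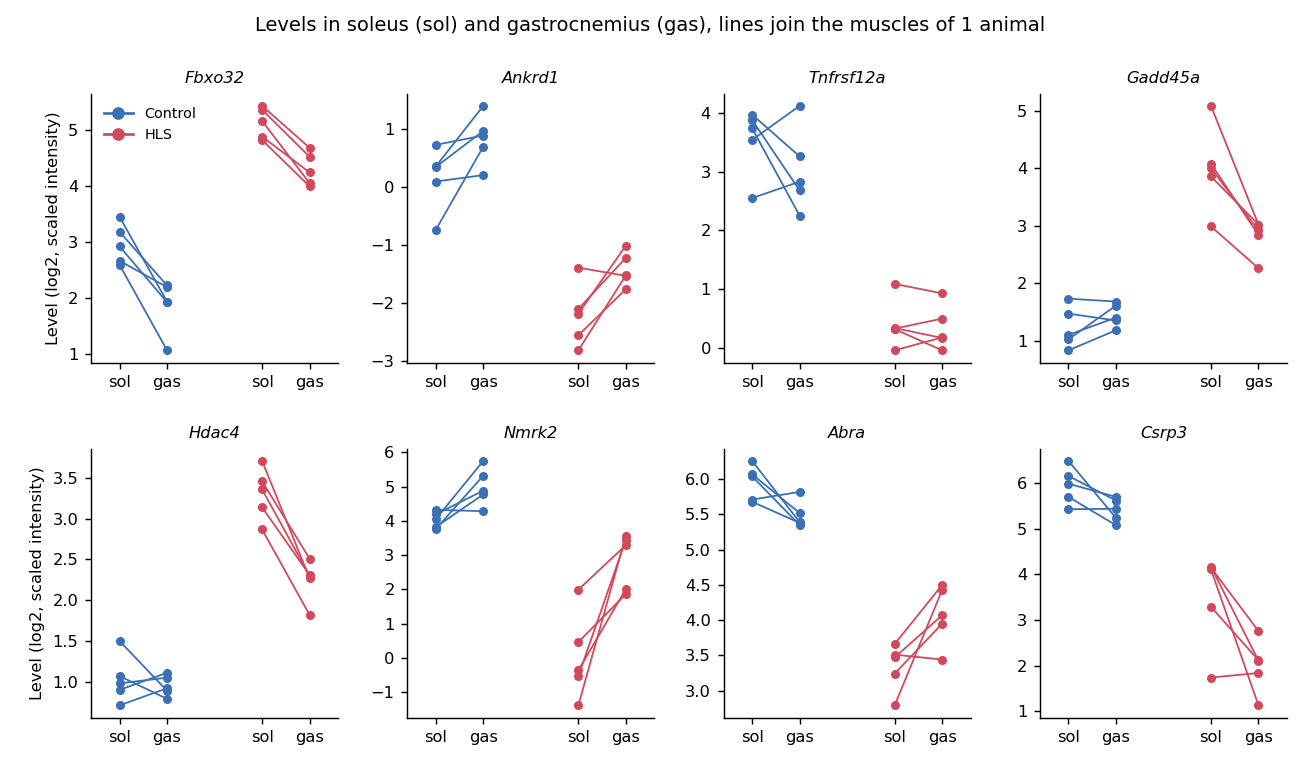
Levels (log2 of scaled intensity) of 8 genes in soleus and gastrocnemius of each animal, controls in blue and HLS animals in red, with a line joining the muscles of 1 animal. For Fbxo32 and Ankrd1 the red lines run roughly parallel to the blue ones at another height, whereas for Gadd45a, Hdac4, Nmrk2 and Abra they are steeper or turned.

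Myog, Chrna1 and Mstn, followed genes of myogenic control, of the nerve and muscle junction and of muscle growth, did not pass for the muscle-dependent response. Myog (myogenin), a myogenic factor, rose in gastrocnemius (0.93, adjusted p = 0.0262 by limma) and gave 0.32 in soleus (adjusted p = 0.511), a muscle-dependent response of -0.61 (95% interval -1.04 to -0.17; adjusted p = 0.70), and 0.11 with slide as a fixed block. Chrna1, the alpha subunit of the acetylcholine receptor, rose by 1.06 in soleus and by 0.82 in gastrocnemius, with a difference of 0.24 (-0.29 to 0.76). Mstn (myostatin), which limits muscle growth, was far lower in soleus in every animal, with differences of -4.46 to -2.93 in controls and -4.59 to -0.92 in HLS animals. Its muscle-dependent response of 0.70 (-0.56 to 1.95) was 0.16 without HLS animal 1, whose difference of -0.92 was the smallest of the 10.

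The other followed genes did not pass for the muscle-dependent response either. Hspa1a, the inducible chaperone of the HSP70 family, fell by 2.35 in soleus and by 1.68 in gastrocnemius, and the difference over 9 animals, HLS animal 5 being left out for a marked spot, was -0.61 (95% interval -1.35 to 0.14). Its other 3 probes gave -0.62 (-1.31 to 0.07), -0.82 (-1.41 to -0.23) and, at the dimmest, 0.06 (-0.39 to 0.52), and with slide as a fixed block the value was 0.07. Atf3, a stress-induced transcription factor, fell by 1.78 and by 1.51, with a difference of -0.27 (-0.87 to 0.33). Ppargc1a, a coactivator of mitochondrial genes, fell in soleus (-0.87, adjusted p = 0.0204 by limma) and gave -0.73 in gastrocnemius. Igf1, Myh7 and Myh4, a growth factor and the slow and fastest myosin heavy chains, passed in neither muscle, and their muscle-dependent responses were -0.20, -0.12 and 0.28; the interval of Myh4 reached from -1.84 to 2.40.

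Gene lists were read as counts and medians beside those of all genes, where the median muscle-dependent response was 0.03, 55.8% of genes lay above 0 and 5.77% had an unadjusted p under 0.05. The background for calls in single muscles is 5.94% of all genes in soleus (610 up, 893 down) and 3.17% in gastrocnemius (295 up, 506 down). No member of the 24 pathway lists passed after adjustment. Among 44 genes of stretch and sarcomere mechanosensing, 1 rose and 15 fell in each muscle, the median response was -0.42 in soleus and -0.47 in gastrocnemius, and the median muscle-dependent response was 0.07. At an unadjusted p under 0.05, 3 were higher and 5 lower in soleus, so the list held estimates on both sides. Among 38 heat shock proteins and chaperones, 15 fell in soleus and 10 in gastrocnemius, none rose, and the median muscle-dependent response was -0.01. Dnajb4, a cochaperone, had the lowest p of that list, at -0.57 (95% interval -1.06 to -0.08). Its next brightest probe gave -0.79, but the 2 dimmest gave 0.30 and 0.33, and the mean of all 4 gave -0.18.

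The lists of catabolic control had medians near that of all genes, while most held a larger share at an unadjusted p under 0.05. Of 27 FoxO targets, 9 rose in soleus and 7 in gastrocnemius, none fell, and the median muscle-dependent response was -0.04. Of 28 glucocorticoid receptor targets, 8 and 9 rose, with a median of -0.09, and of 22 ubiquitin ligases of atrophy, 4 rose and 2 fell in soleus and 1 rose in gastrocnemius, with a median of 0.04. The 31 proteasome subunits gave no call in either muscle and 0 at an unadjusted p under 0.05 for the difference (limma). That share was 18.2% of the ubiquitin ligases (1 higher and 3 lower in soleus) and 17.9% of the glucocorticoid receptor targets (2 and 3). It was 11.1% of the FoxO targets (2 and 1), against 5.77% of all genes. Of 27 growth arrest and p53 targets it was 18.5% (3 and 2), with a median of 0.

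Immediate-early factors, the transcription factors that cells induce within minutes of activity or stress, had the lowest median, -0.27, with 9 of 27 above 0. At an unadjusted p under 0.05, 5 were lower in soleus (18.5% of the list in all) and none higher. Nr4a1, an orphan nuclear receptor induced by contraction, led them: its differences were -1.72 to -0.31 in controls and -1.06, -3.41, -2.65, -2.59 and -4.10 in HLS animals 1 to 5. HLS animal 1 lay within the control range, and the other 4 lay below it. Nr4a1 fell in soleus by 1.79 (adjusted p = 0.00433 by limma) and gave -0.09 in gastrocnemius, a muscle-dependent response of -1.70 (95% interval -2.72 to -0.68; adjusted p = 0.596). The list median was -0.16 without HLS animal 1, and it ran from -0.30 to -0.02 over the settings run.

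ATF4 targets had a median of -0.01 and 5 of 26 members higher in soleus at an unadjusted p under 0.05, with none lower. Psat1, an enzyme of serine synthesis, led them with 1.47 (95% interval 0.73 to 2.22; adjusted p = 0.446 by limma). Its differences were 0.03 to 1.52 in controls and 0.93 in HLS animal 1 but 1.93 to 2.62 in the other 4 HLS animals. It rose in soleus (1.41, adjusted p = 0.00779 by limma), and gastrocnemius gave -0.07. In the unfolded protein response, a neighbouring branch of stress signalling, 4 of 27 members lay above 0 and the median was -0.10, with 10 members falling in soleus and 5 in gastrocnemius, and 1 rising in soleus, Herpud1 (0.59, adjusted p = 0.0263 by limma).

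Fibre-type genes gave list medians on opposite sides of 0. Of 23 fast-fibre genes, 20 lay above 0 with a median of 0.16, and Gpd1, a glycerol phosphate dehydrogenase, had the lowest p (0.94, 95% interval 0.30 to 1.58). The muscle differences of Gpd1 were -2.43 to -1.51 in controls. They were 0.02, -1.51, -1.02, -1.17 and -1.65 in HLS animals 1 to 5, so HLS animal 1 raised its estimate. Of 23 slow-fibre genes, 7 lay above 0 with a median of -0.12. Both medians involve HLS animal 1, in which soleus and gastrocnemius were least unlike: without it they were 0.10 and -0.02, and with scan day as a term, where the HLS effect rests on that animal, they were 0.65 and -0.64. With slide as a fixed block they were -0.05 and -0.16. Extracellular matrix genes fell in both muscles (9 and 7 of 41, none rising), with a median difference of -0.04, and Col12a1, a fibril-associated collagen, had the lowest p, at -0.67 (95% interval -1.17 to -0.18), and -0.25 with normexp at this dim probe.

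**Figure D5:**
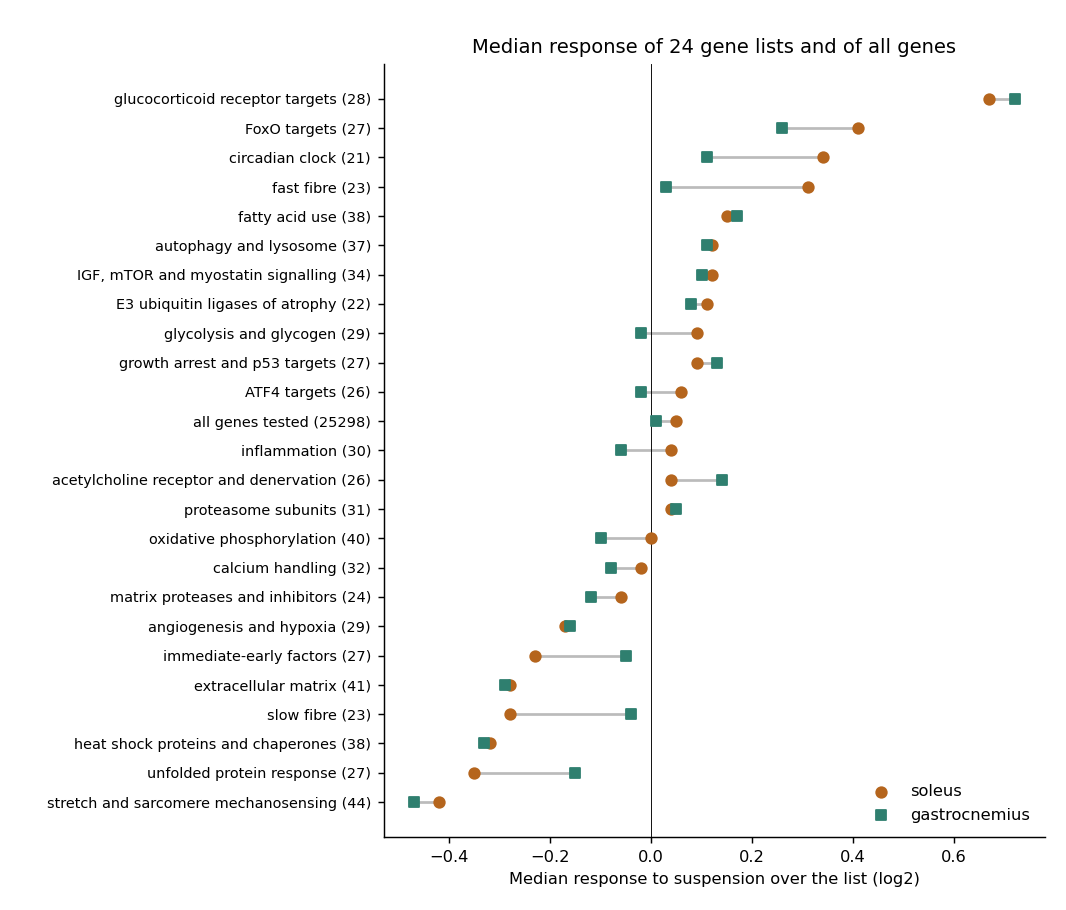
Median response to suspension (log2) over each of 24 gene lists and over all genes, in soleus (circles) and gastrocnemius (squares), with the number of measured genes in brackets. The medians of both muscles have the same sign for the strongest lists; fast-fibre genes (0.31 and 0.03) and slow-fibre genes (-0.28 and -0.04) are among the widest gaps.

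Markers of other cell types were followed for the same contrast. In 10 marker lists, none of the members passed for the muscle-dependent response, and the list medians ran from -0.22 to 0.17, and from -0.39 to 0.13 without HLS animal 1, when tendon markers went from -0.08 to -0.16 and lymphocyte markers from -0.08 to -0.20. All 10 adipocyte markers lay below 0, with a median of -0.22, and of -0.08 without HLS animal 1. Over the settings run, that median ran from -1.40 to -0.02. The median adipocyte difference was 0.84 to 2.72 in controls and 0.25, 1.68, 2.47, 1.96 and 0.48 in HLS animals 1 to 5, so fat markers were higher in soleus in every animal and by the least in HLS animals 1 and 5. The summed level of these 10 markers was 7.57 to 8.82 in soleus controls, 7.03 to 8.51 in soleus HLS, and 6.37 to 6.72 over both gastrocnemius groups. Of 12 Schwann cell and nerve markers, 2 lay above 0, with a median of -0.16, which was -0.39 without HLS animal 1 and 1.44 with slide as a fixed block. Their summed levels were 4.67 to 6.64 in soleus controls and 4.61 to 6.28 in soleus HLS. The part of these cell types in the values above was not tested.

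Promoter windows were searched for 5 motifs because several of the genes above moved together. RefSeq gives a window of 300 bases (GRCm38.p6, 250 before to 50 after a start) for 48 of the 66 genes, and some genes have several. On either strand, the share of all 32851 windows with a match was 1.63% for the CArG box of serum response factor, 3.19% for the MEF2 site, 7.86% for GAANNTTC (part of the heat shock element), 1.79% for TGACGTCA (the cAMP response element) and 7.81% for TGANTCA (AP-1). Windows of 11 genes held a match. The share of all windows or genes with at least 1 of the 5 motifs was not computed, so this count is not read as a result. Besides the genes named below, they were Mstn, Igf1, Chrna1 and Acsl6 (TGANTCA), Nr6a1 (TGACGTCA), Atf3 (MEF2 site) and Myh4 (CArG box and MEF2 site). Shown here are Asb5, whose soleus fall was among the most muscle-dependent, with its CArG box in capitals (chr8:54550081-54550380, + strand), and Hspa1a (chr17:34972107-34972406, - strand) and Ankrd1 (chr19:36119795-36120094, - strand), which fell in both muscles, with GAANNTTC in capitals. A match is a description of these letters only.
Asb5: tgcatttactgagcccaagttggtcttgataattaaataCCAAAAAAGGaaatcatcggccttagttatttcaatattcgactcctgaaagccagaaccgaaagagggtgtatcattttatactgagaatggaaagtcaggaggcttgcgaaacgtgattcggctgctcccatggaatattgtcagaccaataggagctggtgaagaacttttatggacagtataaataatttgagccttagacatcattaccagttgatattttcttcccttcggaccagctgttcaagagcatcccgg
Hspa1a: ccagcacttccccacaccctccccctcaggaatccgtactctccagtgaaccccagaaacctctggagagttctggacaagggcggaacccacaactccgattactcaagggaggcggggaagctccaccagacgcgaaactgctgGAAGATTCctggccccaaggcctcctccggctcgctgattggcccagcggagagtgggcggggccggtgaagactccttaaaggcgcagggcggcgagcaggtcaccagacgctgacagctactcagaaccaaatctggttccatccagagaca
Ankrd1: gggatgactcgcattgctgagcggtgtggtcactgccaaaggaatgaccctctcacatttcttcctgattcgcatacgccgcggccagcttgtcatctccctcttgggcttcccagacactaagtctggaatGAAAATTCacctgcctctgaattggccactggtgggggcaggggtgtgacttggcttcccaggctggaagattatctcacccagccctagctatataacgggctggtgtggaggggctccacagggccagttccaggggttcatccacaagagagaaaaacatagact
The CArG box of Asb5 starts 211 bases before the start site, and other windows of the same gene held the MEF2 site and GAANNTTC. The matches in Hspa1a and Ankrd1 start 104 and 118 bases before their start sites. Csrp3 also held GAANNTTC, while the windows of Ccn1, Nr4a1, Gadd45a, Dnmt3a and Nlrc3 held none of the 5.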

How the data were processed

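Total RNA of each muscle was labelled with Cy3 and hybridised to 1-colour arrays, per the labels' protocols. The deposited files hold linear spot intensity made by the authors with Agilent Feature Extraction 9.1.3.1 (version per the file headers), without scaling between arrays; the deposited series table equals it within 0.497%. No statistical test of theirs was used. Here, processed intensity was divided by the 75th percentile of its array and taken to log2, outlier-marked spots were left out, and repeated spots of a probe were averaged. Probes had to be well above background on 4 of 5 arrays of any group, and the brightest of those stood for its gene. Symbols came from RefSeq by accession for 22951 of 41174 probes, by current symbol for 6659 and by older symbol for 3109; 8455 kept the name in the file. The 10 within-animal differences were tested with limma 3.58.1 (R 4.3.3), and single muscles in a model of 4 groups over 20 arrays. Genes with a marked spot lost that animal (184 genes).

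Animal numbers pair the muscles because the labels number the animals and both muscles were excised from each; deviations from the group means correlated at -0.344 to 0.17 within animals (median 0.036). Named genes were 23 followed genes, the gene with the lowest p of each list where none passed, and 10 per direction chosen by p after the values were seen. Other list members are named only in counts, and 1 gene that the rule names is not reported here. The members, lists and tests were chosen with earlier results of these data known. The fit was tested on simulated data, and 14 other settings (background, scaling, filter, probe, block, weights and left-out animals) were run, with a few more chosen after seeing the data. The number of arrays limits the precision. Promoter windows came from RefSeq.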

Additional observations from a re-analysis of the deposited data

Results flagged for a closer look

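In 6 of 131 groups of 5 animals examined, 1 animal's muscle difference lay far from the other 4, by a gap over 0.71 of the group's range (Dixon's criterion, which chance meets in about 1 in 20 groups, so a count of this size carries no pattern). In Control animal 5, the difference of Mag, a myelin protein, was -0.76 against 0.23 to 0.47 in the others (ratio 0.804), and that of Myocd, a coactivator of smooth muscle genes, was -0.68 against -0.02 to 0.24 (0.713). In HLS animal 4, Myocd was -0.95 against -0.66 to -0.56 (0.738). In Control animal 2, the adhesion molecule Vcam1 was -0.28 against 0.41 to 0.65 (0.743), and the cochaperone Dnajb4 was 0.25 against 0.88 to 1.13 (0.717). In HLS animal 3, the unnamed transcript AK037078 was 0.18 against 0.39 to 0.48 (0.713).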

How the results depend on the processing

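The count of 0 genes with a muscle-dependent response was 6 with normexp, 1 with quantile normalization (Dnmt3a), 1 with median scaling (Gprc5c), 4 among genes well above background on every array, 2 with no replicate block, 2 with the animal as a random block, 6 with slide as a random block, 1 with scan day as a term (Mpdz) and 3 with array weights. It was 0 with the mean of all probes, no filter, the series table, and, both added after seeing the data, slide as a fixed block and marked spots kept. Spike-in scaling gave 24115 genes (24146 unadjusted), all lower in soleus, and counts of 3455 for the suspension response in soleus and 24088 for the suspension response in gastrocnemius. Leaving out 1 animal gave 0 to 1 genes (1 without HLS animal 1, and Dnmt3a without HLS animal 2), 1163 to 1878 unadjusted, 1005 to 1498 in soleus and 469 to 745 in gastrocnemius, the latter 500, 469 and 499 without Control animals 2 and 3 and HLS animal 3. The higher share of the unadjusted genes was 48.9% without HLS animal 5. For the signs of single genes, spike-in values were taken relative to the median of all genes. Before that step, 0 genes were higher in soleus at an unadjusted p under 0.05 with spike-in scaling. On that footing, named genes whose interval excluded 0 kept their sign in all settings run, with few exceptions. These were Ankrd2 (-0.32) and Nr4a1 (0.00) with scan day as a term, and Myog (0.11) and Myocd (0.08) with slide as a fixed block. The cause was not tested. Scan day leaves the HLS effect to HLS animal 1 against the controls. The soleus-leaning share of averaged responses was 63.31% to 71.95% in the other settings and 49.75% with slide as a fixed block. Spike-in values were again taken relative to the median of all genes.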

Other observations

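Metabolic and regulatory lists not described above gave no member that passed for the muscle-dependent response (limma, adjusted over all genes). Acsl6, an acyl-CoA synthetase, had the lowest p of 38 genes of fatty acid use: its muscle differences were -0.56 to -0.11 in controls and -0.06 to 0.43 in HLS animals, a muscle-dependent response of 0.60 (95% interval 0.26 to 0.94; adjusted p = 0.558 by limma). That value rests on its brightest probe, since the other 3 gave -0.04, 0.09 and 0.18 and the mean of all 4 gave 0.08. In the same list, 7 members rose and 2 fell in soleus, and 1 rose and 1 fell in gastrocnemius. Over all genes, 5.94% passed in soleus and 3.17% in gastrocnemius, in either direction. Of 40 genes of oxidative phosphorylation, 27 lay above 0 with a median of 0.08, and Cyc1, a subunit of complex III, gave 0.43 (0.05 to 0.81). In the circadian clock list, 5 of 21 genes rose in soleus and 2 in gastrocnemius, and the repressor Nfil3 had the lowest p, at -0.64 (-1.07 to -0.21). Ddit4l, a relative of Ddit4, rose 4.66-fold in soleus and 2.75-fold in gastrocnemius, with a muscle-dependent response of 0.76 (0.11 to 1.41), and of 0.53 without HLS animal 1. Bnip3, a mitophagy receptor, gave -0.75 (-1.20 to -0.30), with muscle differences of 0.49 to 1.55 in controls and -0.15 to 0.55 in HLS animals. Camk2g, a calcium and calmodulin kinase, gave 0.34 (0.02 to 0.66), and Rela, a subunit of NF-kappa B, 0.48 (0.09 to 0.87).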
